A study of Canis lupus familiaris with 10 samples.

Results

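The miR-25, miR-92 and miR-363 seed family was measured in canine lymph nodes, either affected by diffuse large B-cell lymphoma (DLBCL) or healthy. The members were chosen by name: cfa-miR-25, cfa-miR-32, cfa-miR-92a, cfa-miR-92b and cfa-miR-363, where cfa marks the dog, Canis lupus familiaris. All 5 were among the 320 mature miRNAs listed for the series. Small RNA was sequenced from fresh-frozen nodes, 6 with DLBCL and 4 healthy, each from a different dog and giving 1 library. The DLBCL group were hospital patients of several breeds and both sexes, whose affected peripheral node was sampled by wedge biopsy or removed whole under anesthesia, and their ages are not given in the sources used here. The healthy dogs were purpose-bred female hound crosses, all under a year old, which were euthanized in surgical teaching courses. Whether their nodes were taken before or after euthanasia is not stated. The labels give no treatment for either group. Origin, breed and sampling followed the diagnosis and cannot be told apart from it, and sex differed between the groups, since males were present in the DLBCL group alone. Libraries are named by their labels, DLBCL1 to DLBCL6 and Healthy2 to Healthy5.

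A miRNA guides the Argonaute protein to messenger RNAs that pair with its seed, a short stretch near the start of the mature strand, and lowers their stability and translation. Members of a seed family carry the same seed and so share many predicted targets, among which the proapoptotic factor BIM is well known for this family. The genes lie in several places. In mammals miR-92a is made from both the miR-17/92 cluster, an oncogenic cluster often amplified or highly expressed in B-cell lymphoma, and its relative on the X chromosome, the miR-106a-363 cluster, which also encodes miR-363. miR-25 belongs to the miR-106b/25 cluster, within an intron of MCM7, a subunit of the replicative helicase. The dog annotation UU_Cfam_GSD_1.0, used for names and neighbours only, held 6 genes for the 5 members. It placed MIR25 within MCM7 beside MIR93, MIR92A-1 beside MIR19B-1, MIR92A-2 between MIR363 and MIR19B-2, MIR32 within TMEM245 and MIR92B between THBS3 and MUC1. Because miR-92a has a pair of genes that give the same mature miRNA, its reads cannot be assigned to a cluster.

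The libraries held 10686441 to 25784861 miRNA reads in DLBCL and 30432969 to 34709421 in healthy nodes. Levels are given as CPM, the reads scaled to a common library size after adjusting each library by the trimmed mean of M-values (TMM). The TMM factors ranged from 0.698 to 2.03 in DLBCL and from 0.507 to 1.11 in healthy nodes. The most abundant miRNA, miR-148a, accounted for 31.3% of the reads on average in DLBCL and for 61.0% in healthy nodes, so the choice of scaling bears on the folds below. Read quality also differed: 4 DLBCL libraries (DLBCL1, 2, 3 and 5) had a higher share of bases at Q30, a score for few sequencing errors, while DLBCL4, DLBCL6 and the 4 healthy libraries had a lower share. The nodes were bulk tissue, in which fewer cells of a type and less RNA per cell cannot be told apart.

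miR-25, miR-32, miR-92a and miR-363 had a higher mean CPM in DLBCL than in healthy nodes. Of the 5 members 1 passed the test, miR-363. Fold changes were tested with edgeR's quasi-likelihood F test over 247 miRNAs that passed a filter on low counts, and a call needed an adjusted p below 0.05 and a fold change over 2. Of the 247 miRNAs, 14 were called (5.67%), and 9 were called higher in DLBCL (3.64%). miR-92b entered the test through its DLBCL values alone and is left out of the next counts. The fitted log2 fold changes of the other 4 members ran from 0.74 to 2.14 with a median of 1.504, against a median of 0.13 over all 247. Of the 247 miRNAs, 137 had a positive log2 fold change. Unadjusted p-values fell below 0.05 for 3 of these 4 and for 66 of the 247 miRNAs. For 2 members, miR-363 and miR-92a, all DLBCL libraries lay above all healthy libraries, as they did for 17 of the 247 miRNAs (6.88%).

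**Figure D1:**
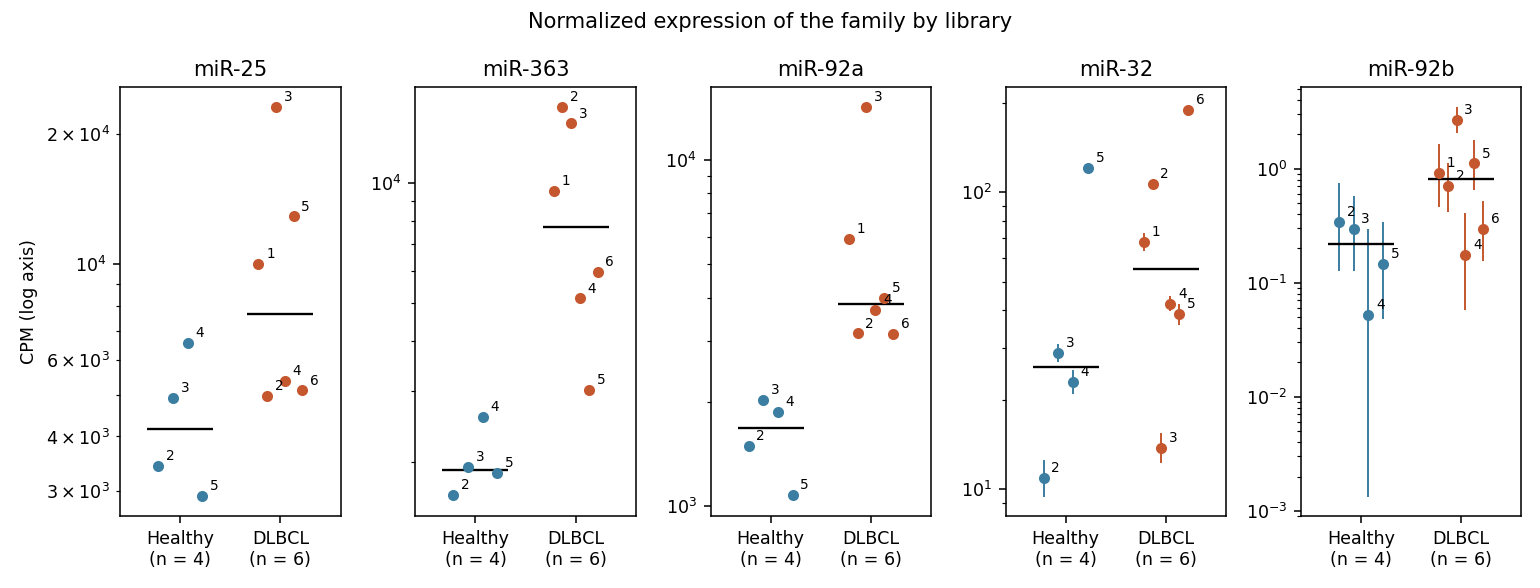
Normalized expression of each member in CPM on a log axis, with 1 point per library. Digits are library numbers, vertical lines are 95% Poisson intervals of the read count (counting error only) and black bars are medians. The DLBCL and healthy points do not overlap for miR-363 and miR-92a and overlap for miR-25, miR-32 and miR-92b.

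Summed over the 5 members, the family reached 14241 to 51268 CPM in DLBCL, with a median of 21801, and 5989 to 11060 CPM in healthy nodes, with a median of 7747. The lowest DLBCL library was above the highest healthy library. The ratio of the group means was 1.61 on the log2 scale. It was 2.21 with total reads as the scaling, 0.82 in the lower Q30 group alone and 1.26 without DLBCL3. No test was made of the sum, since the members were not chosen blind to these data. As a share of all miRNA reads, without TMM, the family took 1.39% to 4.22% in DLBCL and 0.333% to 0.789% in healthy nodes. DLBCL3 had the highest sum in CPM, and the next library was at 25490 CPM.

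miR-363, which is encoded on the miR-106a-363 cluster, was the member whose change was called. Its level was 9522, 15430, 14065, 5127, 3021 and 5963 CPM in DLBCL1 to DLBCL6. In Healthy2 to Healthy5 it was 1653, 1945, 2584 and 1871 CPM. DLBCL2 and DLBCL3 were the highest, DLBCL5 was the lowest of the DLBCL group, and even DLBCL5 was above every healthy node. The means were 8855 ± 5042 CPM (SD, n = 6) and 2013 ± 400.2 CPM (SD, n = 4). The log2 fold change was 2.14 with a standard error of 0.49, a 95% interval of 1.08 to 3.19 and an edgeR adjusted p of 0.0397. By mean CPM it ranked 15 among the listed miRNAs in DLBCL and 32 in healthy nodes. The call was lost when DLBCL1 was left out, or any 1 of the 4 healthy libraries, with log2 fold changes between 1.93 and 2.34 over all 10 omissions. The paper also measured miRNAs by quantitative PCR, another measure than read counts. There it reported miR-92a as significantly higher in DLBCL, but not miR-363 or miR-92b. Its PCR panel did not include miR-25 or miR-32.

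miR-92a, the member of both the miR-17/92 and the miR-106a-363 cluster, had no overlap between the groups but did not pass the adjusted threshold. Its level was 5907, 3155, 14163, 3698, 3990.1 and 3143 CPM in DLBCL1 to DLBCL6. In Healthy2 to Healthy5 it was 1496, 2034, 1873 and 1077 CPM. DLBCL3 stood far above the rest, and the other 5 DLBCL libraries lay within 3143 to 5907 CPM. The means were 5676 ± 4280.3 CPM (SD, n = 6) and 1620.1 ± 426 CPM (SD, n = 4), and the log2 fold change was 1.81 with a standard error of 0.50. Its 95% interval was 0.72 to 2.90 and the edgeR adjusted p was 0.0565. Without DLBCL3 the log2 fold change was 1.34 and passed the test, and miR-92a was called in 4 of the 10 fits that left out 1 library (without DLBCL2, DLBCL3, DLBCL4 or DLBCL6).

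miR-25, of the miR-106b/25 cluster, was the most abundant member, and its groups overlapped in CPM. Its level was 9993, 4969, 23024, 5373, 12890.2 and 5109 CPM in DLBCL1 to DLBCL6. In Healthy2 to Healthy5 it was 3418, 4906, 6579.7 and 2921 CPM. DLBCL3, DLBCL5 and DLBCL1 were above every healthy node, while DLBCL2, DLBCL4 and DLBCL6 were below Healthy4. The means were 10226 ± 7047 CPM (SD, n = 6) and 4456 ± 1648 CPM (SD, n = 4). The log2 fold change was 1.198 with a standard error of 0.50 and a 95% interval of 0.11 to 2.29, and the edgeR adjusted p was 0.141. On the deposited scale of TPM, which divides by the total miRNA reads, its level was 6989 to 18971 TPM in DLBCL and 1731 to 4343 TPM in healthy nodes. These ranges do not overlap, but the share of all miRNAs without overlap in TPM was not counted. With that scaling the log2 fold change was 1.71 with an edgeR adjusted p of 0.0159, while the median of all miRNAs moved from 0.13 to 0.82. Taken relative to that median, miR-25 was at 1.07 with TMM and at 0.89 with total reads.

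miR-32, which lies apart from the clusters within TMEM245, was far lower and varied as much within the groups as between them. Its level was 67.9, 107, 13.7, 42.1, 38.9 and 189.8 CPM in DLBCL1 to DLBCL6. In Healthy2 to Healthy5 it was 10.9, 28.8, 23.0 and 120.5 CPM. DLBCL6 and Healthy5 were the highest libraries of their groups, and DLBCL3, the highest library for miR-25 and miR-92a, was the lowest DLBCL library here. The log2 fold change was 0.74 with a standard error of 0.79, a 95% interval of -0.96 to 2.44 and an edgeR adjusted p of 0.566. A change of either sign lies within that interval. Leaving out 1 library moved the value from 0.28 (without DLBCL6) to 1.76 (without Healthy5).

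miR-92b, which differs in gene locus from miR-92a, was near the limit of detection. Its reads numbered 11, 18, 57, 5, 17 and 12 in DLBCL1 to DLBCL6 and 6, 8, 1 and 5 in Healthy2 to Healthy5. In CPM this was 0.921, 0.704, 2.68, 0.176, 1.11 and 0.297 in DLBCL, against 0.341, 0.294, 0.0525 and 0.147 in healthy nodes. The 95% Poisson interval of the single read in Healthy4 ran from 0.00133 to 0.293 CPM, and that of the 57 reads in DLBCL3 from 2.03 to 3.48 CPM. The log2 fold change was 2.20 with a standard error of 0.86, a 95% interval of 0.33 to 4.07 and an edgeR adjusted p of 0.121, and it was 0.20 once the Q30 group was a term in the fit. miR-92b passed the filter on low counts through the DLBCL group alone, so its fold is given as a value and not as support for the others. Its sequence is close to that of miR-92a, so reads of the far more abundant miR-92a may be counted under its name.

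**Figure D2:**
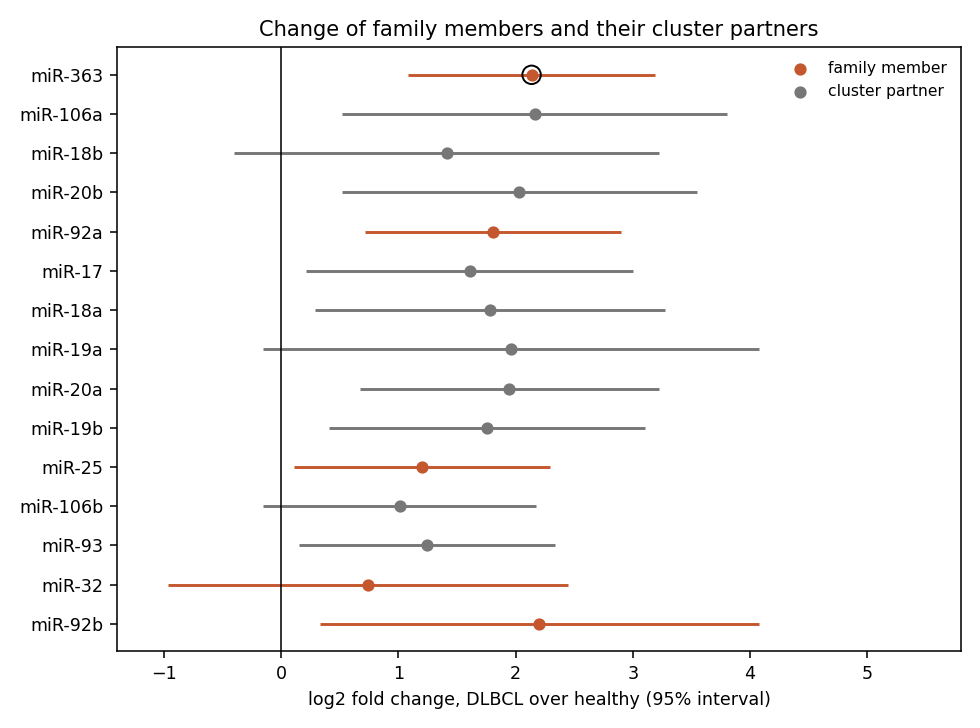
Log2 fold change of DLBCL over healthy nodes for the 5 members and 10 cluster partners, with 95% intervals. The circled point, miR-363 at 2.14, is the one that passed the test. The points lie above 0, as did the log2 fold changes of 137 of the 247 miRNAs tested. miR-92b passed the filter on low counts through the DLBCL group alone and is shown as a value only.

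The order of the members by level was much the same in both groups. By mean CPM miR-25 was first, followed by miR-363, miR-92a, miR-32 and miR-92b. miR-25 exceeded miR-92a in all 10 libraries, and it exceeded miR-363 in 4 of 4 healthy and 4 of 6 DLBCL libraries. miR-363 and miR-92a could not be ordered, since miR-92a was the higher in 2 of 6 DLBCL and 1 of 4 healthy libraries. These are levels of reads of similar length, and the efficiency of adapter ligation, which differs between miRNAs, also enters a comparison of one miRNA with another.

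The shares of the 3 abundant members had larger standard deviations among DLBCL nodes than among healthy nodes, and those of miR-32 and miR-92b had smaller ones. miR-25 supplied 40.5 ± 14.3% of the family reads in DLBCL (SD, n = 6) and 53.8 ± 4.57% in healthy nodes (SD, n = 4). miR-363 supplied 37.1 ± 16.6% and 25.4 ± 4.12%, and miR-92a 21.99 ± 5.06% and 20.1 ± 3.0998%. miR-32 gave 0.425 ± 0.458% in DLBCL and 0.677 ± 0.892% in healthy nodes, and miR-92b 0.00345 ± 0.00171% and 0.00285 ± 0.00195%. miR-25 was the leading member in 8 of 10 libraries. The exceptions were DLBCL2, where miR-363 held 65.2% of the family reads, and DLBCL6, where it held 41.4%. In DLBCL5, by contrast, miR-25 held 64.6%. The difference in spread between the groups was not tested.

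**Figure D3:**
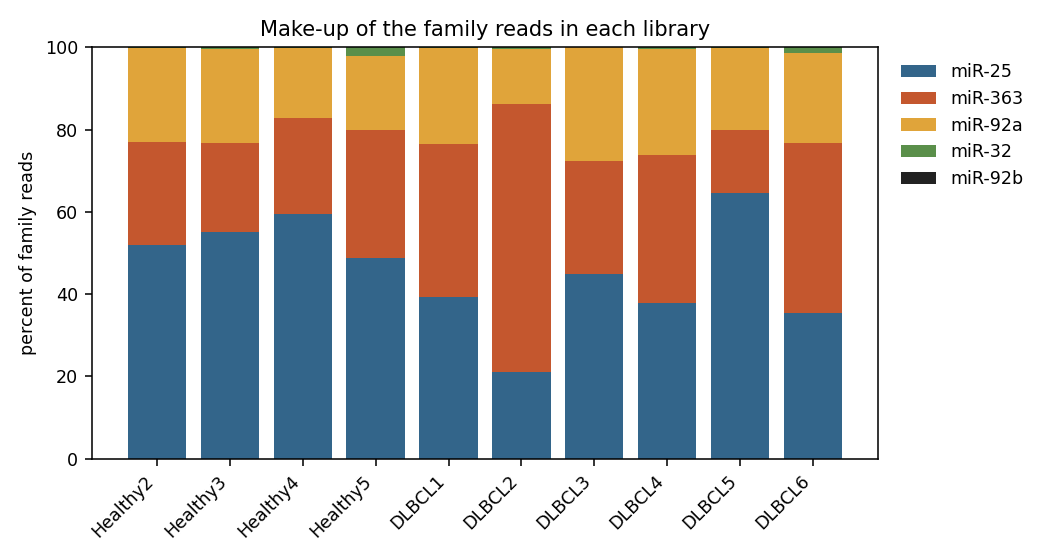
Percent of the family reads taken by each member, with 1 bar per library. miR-25 takes 48.8% to 59.5% in the 4 healthy libraries and 21.0% to 64.6% in the 6 DLBCL libraries, and miR-32 and miR-92b are barely visible.

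Ratios of one member to another within a library need no scaling between libraries, and they were compared for the 10 pairs with a two-sided exact permutation test over 210 splits. No pair differed after adjustment over the 10. The pair with the smallest p was miR-25 over miR-92a, whose log2 ratio was 0.84 ± 0.42 in DLBCL and 1.43 ± 0.28 in healthy nodes. The difference was -0.59 (exact p = 0.0429, adjusted p = 0.429), and it was the 1 pair with an unadjusted p below 0.05. The log2 ratio of miR-25 to miR-363 was 0.18 ± 1.22 in DLBCL and 1.09 ± 0.33 in healthy nodes (exact p = 0.190, adjusted p = 0.810). These p-values do not show that the members changed equally, given the spread of the ratios in DLBCL.

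Relations between members within the 6 DLBCL libraries were tested for the 10 pairs, and none passed the adjusted threshold in an exact test over 720 pairings. miR-25 and miR-92a had a Pearson r of 0.884 (exact p = 0.0194, adjusted p = 0.104) and a Spearman rho of 0.886 (exact p = 0.0333, adjusted p = 0.167). Without DLBCL3 and DLBCL5, the libraries farthest from the median of miR-25, r was 0.985. miR-25 and miR-32 had an r of -0.831 (exact p = 0.0361, adjusted p = 0.1204) and a rho of -0.886 (exact p = 0.0333, adjusted p = 0.167). Their r was -0.328 without the same libraries, and how far the relation depends on those libraries was not tested. For miR-363 and miR-25 no relation was seen, with an r of 0.096 (exact p = 0.861, adjusted p = 0.897) and a rho of -0.257 (exact p = 0.658, adjusted p = 0.793). All values are in log2 CPM and share the TMM factor of their library.

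The cluster partners were given by a list of 10 miRNAs that are encoded beside the members. They include miR-17, miR-20a, miR-20b, miR-106a, miR-106b and miR-93, whose family represses the cell cycle inhibitor p21, and also miR-19a and miR-19b. None of the 10 was called. All 10 had positive log2 fold changes, as had 137 of the 247 miRNAs tested. Each stayed positive in the 21 alternatives, and above the median of all miRNAs there, which was itself 0.82 with total reads. The alternatives reuse the same libraries and are not repeated evidence. Between 1 and 5 of the alternatives called each one. The median log2 fold change was 1.78 for the 5 partners of miR-17/92, 1.89 for the 4 of miR-106a-363 and 1.13 for the 2 of miR-106b/25, with miR-19b in both of the former. Unadjusted p-values fell below 0.05 for 4, 3 and 1 of these partners. The values were 1.95 for miR-20a (2949 CPM in DLBCL and 764 CPM in healthy nodes, edgeR adjusted p = 0.0806), 2.03 for miR-20b (169 and 41.3 CPM, adjusted p = 0.109) and 1.25 for miR-93 (1139 and 479.9 CPM, adjusted p = 0.132). The sequences of miR-106a, miR-17 and the miR-20 pair are near-identical, so their reads may be split between them.

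By mean CPM, miR-25, miR-92a and miR-363 each exceeded every partner of their clusters, by a factor that varied widely between libraries of the same group. The ratio of miR-25 to miR-93 reads was 8.95, 4.82, 41.5, 2.44, 26.1 and 3.55 in DLBCL1 to DLBCL6. In Healthy2 to Healthy5 it was 12.7, 9.23, 19.0 and 3.78. The ratio of miR-92a to miR-20a reads was 1.995, 1.24, 16.8, 0.678, 2.75 and 0.707 in DLBCL, and between 0.723 and 4.18 in healthy nodes. The ratios were high in DLBCL3 and DLBCL5 and low in DLBCL4, DLBCL6 and Healthy5, which have high TMM factors for their group. None of 11 member and partner pairs differed between the groups (two-sided exact permutation test, adjusted p = 0.943 for each pair). The part of the TMM factor, or of what it measures, in these ratios was not tested.

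**Figure D4:**
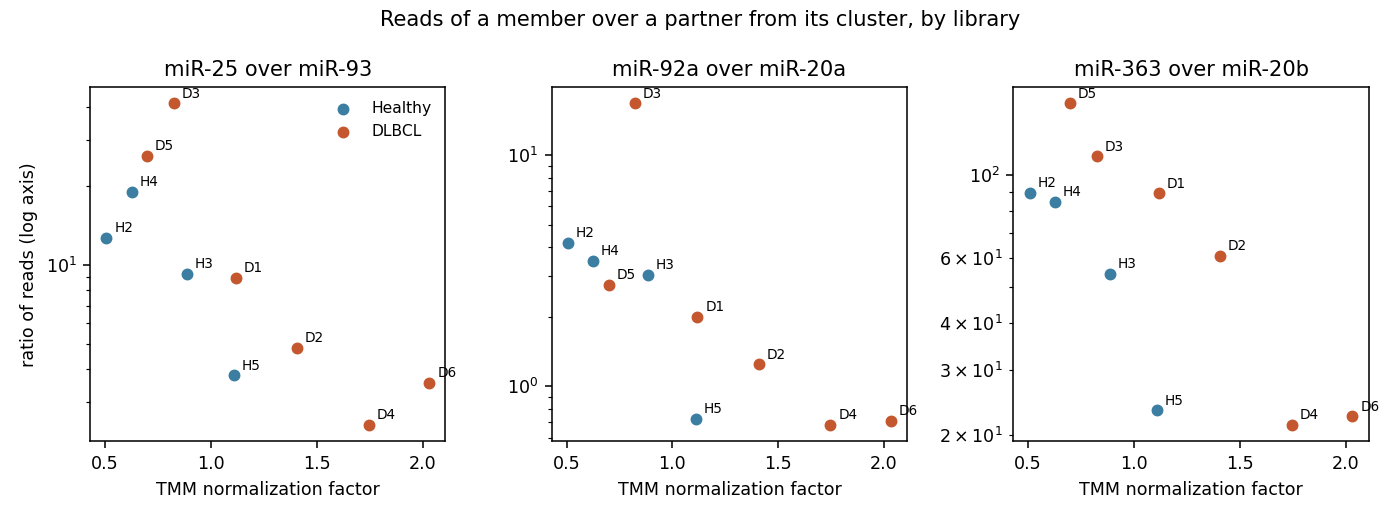
Ratio of the reads of a member to those of a partner from its cluster (log axis) against the TMM factor of the library, with D for DLBCL and H for healthy libraries. In the miR-25 panel the ratio runs from 41.5 in DLBCL3 to 2.44 in DLBCL4, and healthy libraries fall within the same range.

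Red blood cell miRNAs moved with the diagnosis too. The list was miR-451, miR-144, miR-486 and miR-486-3p, which are abundant in erythrocytes. Of these, 3 of 4 were called higher in DLBCL, and the median over the list was 4.70 on the log2 scale. The summed level of the 4 was 5740 to 48886 CPM in DLBCL and 873 to 1278 CPM in healthy nodes. None of the 4 was at 0 in any library. The calls were miR-451 and the pair miR-486 and miR-486-3p. This pair had near-equal CPM in every library and a log2 fold change of 4.87 each. The calls, sum, median and mean of the list thus count nearly the same values more than once. miR-25 and miR-92a are themselves known from red blood cells. DLBCL3, which led miR-25, miR-92a and miR-92b, also had the highest sum, through miR-486 at 17490.1 CPM and miR-486-3p at 17133 CPM. Its miR-451, at 14260.5 CPM, was below that of DLBCL1 (33752), DLBCL2 (28526) and DLBCL5 (22765). Its miR-144, at 2.35 CPM, was the lowest of the DLBCL group. The same library stood apart for single miRNAs of other lists. Epithelial miR-200c was at 108 CPM (15.8 in the next DLBCL library) and miR-200a at 14.5 CPM (next 0.195). Muscle miR-1 was at 301 CPM (next 66.4) and miR-206 at 51.0 CPM (next 8.95, with 21.1 in Healthy2). These lists did not move as a whole. In DLBCL3 miR-203, at 3.25 CPM, was the lowest of all 10 libraries, miR-141, at 4.05 CPM, lay within the range of the others, and miR-200b had no read. miR-429 and miR-205 were highest there, with at most 11 and 7 reads. Muscle miR-133b, at 0.235 CPM, was below DLBCL1 (0.753). DLBCL3 was also the lowest of all 10 libraries for 5 of 6 miRNAs of stroma and vessels, such as miR-145 at 85.0 CPM and miR-126 at 8.85 CPM. Without DLBCL3 the log2 fold change was 0.82 for miR-25 and 1.598 for miR-92b. Over the 6 DLBCL libraries the mean log2 CPM of the list had a Pearson r of 0.965 with miR-92b (exact p = 0.00972, adjusted p = 0.0486 over 5 relations). Its Spearman rho was 0.8286 (exact p = 0.0583, adjusted p = 0.292), and r was 0.893 without DLBCL3 and DLBCL4. miR-92b had 5 to 57 reads in these libraries and passed the filter on low counts through the DLBCL group alone. Its relation to the list is given as a value and not as support for the others. The list and each member share the TMM factor of their library, and its part in these relations was not tested. For the more abundant members r was 0.836 with miR-92a (exact p = 0.0236, adjusted p = 0.0590), 0.828 with miR-25 (exact p = 0.0514, adjusted p = 0.0856) and 0.580 with miR-363 (exact p = 0.228, adjusted p = 0.228). The rho values were 0.714, 0.486 and 0.657, with adjusted p-values of 0.292, 0.444 and 0.292 in the exact test. Without DLBCL3 and DLBCL4 the r values were 0.681, 0.524 and 0.304. miR-32 had a negative r of -0.636 (exact p = 0.167, adjusted p = 0.208), a rho of -0.371 (exact p = 0.497, adjusted p = 0.497) and an r of -0.699 without the same libraries. The part of red blood cells, or of cells of the other lists, in the change of the members was not tested.

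Markers of the node itself were present. Of 5 lymphocyte miRNAs none was called higher and 1 was called lower, miR-150, a miRNA of mature lymphocytes, at 1009 CPM in DLBCL and 7916 CPM in healthy nodes. miR-155, a miRNA of activated B cells, was at 7564 and 5591 CPM. The others were miR-142 at 5395 and 4640 CPM, miR-181a at 980 and 2762 CPM and miR-342 at 76.4 and 130 CPM. Log2 fold changes were positive for 2 of the 5 and negative for 3. Unadjusted edgeR p-values fell below 0.05 for 2 of the 5, and for 66 of the 247 miRNAs tested. The summed level of the lymphocyte list was 9138 to 22448 CPM in DLBCL and 14280.1 to 30138 CPM in healthy nodes.

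The mean levels of most members differed between DLBCL libraries of higher and lower Q30 in CPM, although single libraries overlapped for every member but miR-92b. In the 4 libraries of higher Q30 and the 2 of lower Q30, the mean was 12719 and 5241 CPM for miR-25, 6804 and 3421 CPM for miR-92a, and 10509 and 5545 CPM for miR-363. miR-32 went the other way, at 56.8 and 116 CPM, and miR-92b was at 1.35 and 0.237 CPM. DLBCL4 and DLBCL6 also had the highest TMM factors, and on the TPM scale the means were 11534 and 9884 TPM for miR-25, 6375 and 6424 TPM for miR-92a, and 11512 and 10537 TPM for miR-363, so the gaps in CPM depended on the scaling. Among libraries of lower Q30 alone, 2 DLBCL against 4 healthy, 30 of 259 miRNAs were called higher in DLBCL (11.6%). There miR-363 had a log2 fold change of 1.45 (edgeR adjusted p = 0.0197) and was called, miR-92a was at 1.07 (adjusted p = 0.0619) and miR-25 at 0.22 (adjusted p = 0.732). With the Q30 group as a term in the fit of all 10 libraries, miR-363 was at 1.46 (edgeR adjusted p = 0.156), miR-92a at 1.08 (adjusted p = 0.348) and miR-25 at 0.23 (adjusted p = 0.867). miR-92b was at 0.20 with that term (edgeR adjusted p = 0.930), while miR-32 was at 1.34 with it (adjusted p = 0.549) and at 1.33 in the lower Q30 group (adjusted p = 0.363). The higher group holds DLBCL libraries alone, so quality and diagnosis cannot be told apart there.

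**Figure D5:**
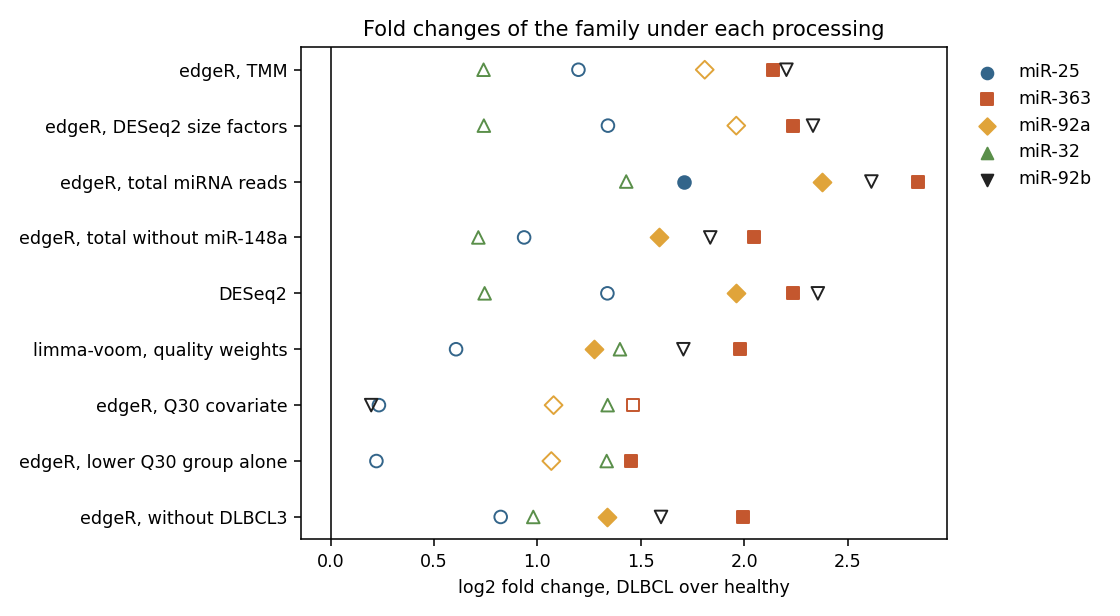
Log2 fold change of each member, DLBCL over healthy, under 9 ways of processing the counts. Filled markers passed the test and open ones did not. The markers of miR-25, miR-32, miR-92a and miR-363 lie above 0. miR-25 falls from 1.198 to 0.22 in the lower Q30 group alone, where miR-92b could not be fitted.

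The miRNAs whose log2 CPM followed a member most closely over the 6 DLBCL libraries were ranked among 242 others by Pearson r, as a description. For miR-25 they were miR-30e (0.983), miR-8884 (0.980) and miR-423a (0.978). For miR-92a they were miR-671 (0.983), miR-375 (0.971) and miR-8884 (0.958), so miR-8884 stood near both. miR-92b was closest to miR-1 (0.963), miR-7180 (0.943) and miR-30e (0.925). For miR-32 they were miR-214 (0.964), miR-380 (0.962) and miR-152 (0.948), of which miR-214 is a miRNA of fibroblasts. The closest to miR-363 was miR-8908a-3p (0.855), followed by miR-8908d (0.843) and miR-769 (0.769). None of the 15 places was held by a cluster partner. Of the 11 member and partner pairs, r was positive for miR-363 with miR-18b (0.145) and miR-20b (0.553) and negative for the rest. The lowest was -0.844 for miR-25 with miR-106b (exact p = 0.0431 over 720 pairings, adjusted p = 0.191 over the 11). For miR-92a with miR-20a r was -0.738. With total reads as the scaling these were -0.414 and -0.0107. No pair passed the adjusted threshold, and the part of the scaling was not tested.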

How the data were processed

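Small RNA from 10 lymph nodes was sequenced with NEBNext small RNA libraries. The authors trimmed the reads, removed repeats and other RNA classes, and counted the rest on miRBase mature miRNAs with a modified miRDeep2; the submitters' processing notes name Bowtie 0.12.9, DESeq2 1.12.0 and CanFam3.1. The authors deposited read counts without normalization, and TPM values, which were checked to be counts scaled to the total of the listed miRNAs (largest difference 4.55e-05). Which strand arm most names stand for is not given in the sources used here.

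Counts were analysed with edgeR 4.0.16 in R 4.3.3 (TMM, filterByExpr, quasi-likelihood F test, Benjamini-Hochberg over 247 miRNAs). Standard errors were the log2 fold change over the square root of F. Alternatives used DESeq2 1.42.0 and limma 3.58.1. Ratios and relations used counts plus 0.5 and exact permutation in Python 3.11.15 with numpy 2.4.6 and scipy 1.17.1. Poisson intervals (95%) cover counting error only, since reads carried no molecular identifiers. Groups came from the labels, and Q30 groups from the study's read statistics. No 2 libraries of a group agreed within sampling noise. Scripts were tested on simulated data.

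The miRNAs named are the members, their cluster partners, the cell type lists (lymphocytes, red blood cells, stroma and vessels, myeloid cells, epithelium, skeletal muscle) and the 3 miRNAs closest to each member. Members and lists were chosen with earlier results of these data known. A search for further miRNAs by seed was not run, and mature sequences were not used here.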

Additional observations from a re-analysis of the deposited data

Results flagged for a closer look

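In groups of 4 to 6 libraries, 9 of 62 sets of values had 1 library set apart from the others by Dixon's 95% limit. Chance gives about 1 in 20 for independent, normally distributed sets. Here many sets reuse the same values, as CPM, shares, sums or ratios, and CPM was not log-transformed. The count of 9 is therefore not a test against chance. DLBCL3 stood apart in 3 of them: miR-92a at 14163 CPM (next 5907), miR-92b at 2.68 CPM (next 1.11) and the family sum at 51268 CPM (next 25490). Healthy5 stood apart in 3 as well: miR-32 at 120.5 CPM (next 28.8), miR-32 at 2.01% of the family reads (next 0.323%) and miR-18b, a cluster partner, at 2.40 CPM (next 0.840). DLBCL6 had miR-32 at 1.32% of the family reads (next 0.450%). DLBCL5 had a log2 ratio of miR-25 to miR-92a of 1.69 (next 0.76), and DLBCL4 had miR-19a at 86.4 CPM (next 31.96).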

How the results depend on the processing

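miR-25, miR-32, miR-92a and miR-363 had a positive log2 fold change in each of 21 alternatives, which reuse the same libraries. In the main fit 137 of the 247 miRNAs were positive. Each of these members also lay above the median of all miRNAs in each alternative. miR-92b is not counted, since it passed the filter through DLBCL alone. miR-363 was called in 14 of 21, miR-92a in 10 of 21, miR-25 in 3 of 21, and miR-32 and miR-92b in none. The count of called miRNAs, 14 (9 higher), was 8 with DESeq2 size factors (3 higher), 23 with total reads (22 higher), 45 with DESeq2 (33 higher), 46 with limma-voom (26 higher), 24 with limma on log2(TPM + 0.5) (21 higher), 21 on log2(TPM + 1) (18 higher), 7 with the Q30 term and 46 in the lower Q30 group alone (30 higher). Leaving out 1 library gave 1 (without Healthy4) to 23 (without DLBCL4). miR-25 passed with total reads (1.71) and limma on TPM (1.72 for both pseudocounts). miR-92a passed with total reads (2.38), total reads without miR-148a (1.59), DESeq2 (1.96), limma-voom (1.27) and limma on TPM (2.31 for both), and ranged from 1.34 to 2.04 over the omissions. miR-363 did not pass with the Q30 term (1.46), and ranged from 1.93 to 2.34 over the omissions. The log2 ratio of mean family levels was 2.21 with total reads and 0.82 in the lower Q30 group. A replicate block gave 1 called miRNA with miR-363 at 1.94 (edgeR adjusted p = 0.180). The numbers do not pair dogs, since hospital patients and purpose-bred dogs were different animals. Deviations of libraries of the same number had r = 0.302, -0.064, -0.302 and -0.306 for numbers 2 to 5. Unlike numbers gave -0.365 to 0.447, so these r values cannot decide a pairing by themselves. In ratio differences, signs turned in the lower Q30 group for miR-25 over miR-32 (-1.24), miR-32 over miR-92a (0.43), miR-92b (1.22) and miR-363 (0.070), and miR-92a over miR-92b (0.79). Over the omissions these differences ranged from -0.69 to 0.65 for miR-25 over miR-32, -1.21 to 0.11 for miR-32 over miR-92a, -0.58 to 0.27 for miR-92a over miR-92b, -0.54 to 0.00043 for miR-92a over miR-363 and -0.64 to 0.32 for miR-92b over miR-363. Shares of miR-32 moved from -0.43 to 0.19 percentage points and of miR-92b from -0.000197 to 0.00137. miR-92b could not be fitted in the lower Q30 group, where it failed the filter. The causes were not tested.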

Other observations

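The other cell type lists held no call in either direction with edgeR, and 1 of their miRNAs, of stroma and vessels, had an unadjusted p below 0.05. The 6 miRNAs of stroma and vessels all had negative log2 fold changes, with a median of -0.82 and summed levels of 19191 to 71063 CPM in DLBCL and 27657 to 56164 CPM in healthy nodes. miR-223, the myeloid miRNA, had a log2 fold change of 0.09. Of 7 epithelial miRNAs 3 could be tested, and miR-200b and miR-429 had no read in any healthy node, which allows 0.0879 to 0.171 CPM per library (3 reads). Of 3 skeletal muscle miRNAs 2 could be tested, and miR-1 is among those closest to miR-92b.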
